A study of Mus musculus with 70 samples.

Results

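Imprinted genes are read from a single parental copy, and many of them set how fast a fetus grows before being silenced in most tissues after birth. H19, Igf2, Dlk1, Meg3, Peg3, Plagl1, Mest, Cdkn1c and Grb10 are 9 such genes, taken by gene symbol from the 54532 genes counted in mouse liver. Igf2, Dlk1, Peg3, Plagl1 and Mest are read from the paternal copy, and H19, Meg3, Cdkn1c and Grb10 are read in most tissues from the maternal copy. As background, Igf2 and Dlk1 promote growth, Cdkn1c and Grb10 restrain it, and the liver is a main site of Igf2 and H19 transcription in the fetus.

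The livers came from wild type male C57BL/6 offspring of dams fed a control diet (Ctr) or a high-fat diet (HFD) before mating and through pregnancy. From birth on, mothers and pups of both groups ate chow, so the difference in diet ended there. Livers were collected from offspring aged 4 or 16 weeks at ZT1, ZT5, ZT9, ZT13, ZT17 and ZT21 (hours after lights on), from 1 mouse per library. The paper gives the mice of a group as coming from different litters, with randomization across times of day to limit litter effects. Sample titles name no litter, so littermates at different times could not be identified, and every mouse was treated as independent. The younger groups held 16 Ctr and 18 HFD animals and the older groups 18 of each, with 3 mice per diet and time except 2 in Ctr at ZT9 and ZT13 of 4 weeks.

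Total counts per mouse at 4 weeks ran from 16052067 to 19828715 in Ctr (median 17810618) and from 15867488 to 19133010 in HFD (median 17923328). At 16 weeks they ran from 14758382 to 20100545 in Ctr (median 16552360) and from 15263275 to 17133063 in HFD (median 15958311). Levels are given as CPM, a gene's count divided by the total count of its library and put on a common scale, and intervals on pooled counts are exact Poisson intervals that cover counting error only. Hepatocyte markers were abundant in every mouse, with a median summed level of 142894 CPM at 4 weeks and 113586 CPM at 16 weeks, and Alb led them.

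In 3 libraries the markers of a tissue other than liver summed to more than 100 CPM, a limit chosen after seeing the data. In the HFD mouse of 4 weeks at ZT21, replicate 1, 9 of 10 skeletal muscle markers were detected with a summed level of 417 CPM, against a median of 0.476 CPM at that age. Acta1, the actin of skeletal muscle fibres, was the most abundant at 156 CPM. In the HFD mouse of 16 weeks at ZT21, replicate 2, 9 of 10 muscle markers summed to 1382 CPM against an age median of 0.774 CPM, with Acta1 at 451 CPM, and 5 of 5 adipose markers summed to 125 CPM, led by Cfd at 65.0 CPM. In the HFD mouse of 4 weeks at ZT9, replicate 2, 6 of 6 exocrine pancreas markers summed to 27092 CPM against an age median of 18.9 CPM, led by Cela2a at 7868 CPM, and 5 of 5 adipose markers summed to 125 CPM. The muscle troponin gene Tnnc2 was at 0 in all 3 of these libraries. Results that turned or lost their call without these libraries are given both ways.

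All 9 genes were weakly expressed in these livers. Per kilobase of exon, Mest had the highest median at 4 weeks with 1.18 CPM per kb, which ranked 9348 among the 17118 genes with a median above 0. Cdkn1c (0.854), Grb10 (0.820), H19 (0.669), Peg3 (0.328), Plagl1 (0.213) and Meg3 (0.0197 CPM per kb) came next, and Igf2 and Dlk1 had a median of 0. Mest, Cdkn1c, Grb10 and H19 each lay closer to the next in this order than the spread between mice. At 16 weeks the order of the medians was Cdkn1c (0.512), Grb10 (0.449), Mest (0.392), Peg3 (0.196), Plagl1 (0.124), H19 (0.0257) and Meg3 (0.0251 CPM per kb). The leading 3 of that order did not differ from each other beyond the spread between mice, and H19 had moved from rank 10765 at 4 weeks to rank 16875 of 17790.

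**Figure D1:**
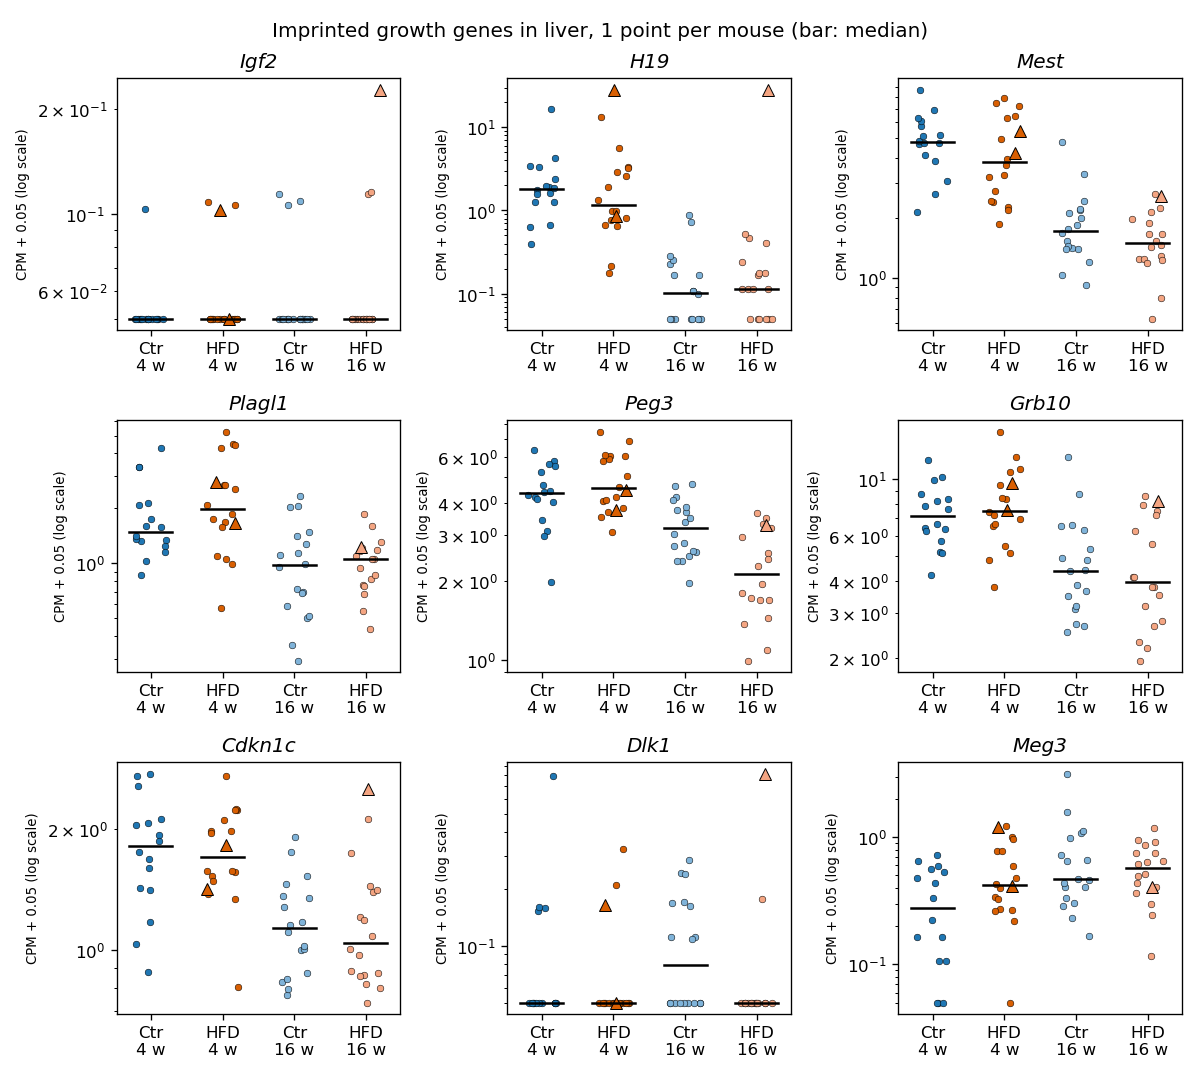
Level of each of the 9 genes in every mouse (CPM plus 0.05, log axis) by maternal diet and age; each point is 1 mouse, the bar is the group median and triangles mark the 3 libraries with markers of another tissue. H19 and Mest show the widest gap between the ages, and Igf2 and Dlk1 sit at the bottom of their panels in most mice.

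Between 4 and 16 weeks H19, Mest, Plagl1, Peg3, Grb10 and Cdkn1c fell and Meg3 rose, while Igf2 and Dlk1 were near the limit of detection at both ages. The fall was steepest for H19, 15.9-fold by the fit (26.0-fold between the medians), followed by Mest at 2.59-fold and Plagl1 at 2.07-fold. Each of the 6 genes that fell had a lower mean at 16 weeks at 6 of 6 times of day, and all such counts compare means of CPM. In whole liver, fewer cells that express a gene and less RNA per cell cannot be told apart, and because each age has its own count table, age and library batch cannot be told apart either.

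H19 and Igf2 are neighbours on chromosome 7 that share enhancers and are read from opposite parental copies. H19 (ENSMUSG00000000031, chr7:142575529-142578143, minus strand, GRCm38) is a noncoding RNA that hosts the microRNA miR-675. H19 in Ctr mice of 4 weeks ran from 0.341 to 16.5 CPM with a median of 1.76 CPM, and in HFD mice from 0.126 to 28.0 CPM with a median of 1.11 CPM. At 16 weeks H19 was detected in 10 of 18 Ctr mice (0 to 0.842 CPM, median 0.0531 CPM) and in 12 of 18 HFD mice (0 to 28.2 CPM, median 0.0639 CPM). The diets overlapped at both ages, and 25 of 36 mice of 16 weeks lay below the lowest mouse of 4 weeks; the mouse at 28.2 CPM was the 16-week library with muscle markers. Without that library, the 35 other mice of 16 weeks held 77 H19 reads in all and none of them reached the 4-week median.

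Igf2 (ENSMUSG00000048583, chr7:142650766-142666816, minus strand) encodes the fetal insulin-like growth factor. A single read of Igf2 was found in 1 of 16 Ctr and in each of 3 of 18 HFD mice at 4 weeks. At 16 weeks 3 of 18 Ctr and 3 of 18 HFD mice had any read, and 3 of the 8 reads came from the library with muscle markers. Pooled over mice, Igf2 stood at 0.00656 CPM at 4 weeks (95% interval 0.00179 to 0.0168) and at 0.0136 CPM at 16 weeks (0.00588 to 0.0269). The intervals overlap, but they cover counting error only and are no test of a difference between the ages. The gene did not enter the test, for which at least 50% of the mice of both diets needed a read. The antisense gene Igf2os overlaps Igf2 with at most 4 reads per mouse, and as the strand setting of the counting is not stated, single reads may belong to either.

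Dlk1 and Meg3 form the corresponding pair on chromosome 12, with Dlk1 coding for a membrane protein related to Notch ligands and Meg3 for a noncoding RNA. Dlk1 (ENSMUSG00000040856, chr12:109452823-109463336, plus strand) was detected in 4 of 16 Ctr and 3 of 18 HFD mice at 4 weeks, and in 9 of 18 Ctr and 2 of 18 HFD mice at 16 weeks. The highest mice had 13 reads each, a Ctr mouse of 4 weeks at ZT9, replicate 2 (0.741 CPM), and the 16-week library with muscle markers (0.765 CPM). That library held 13 of the 15 reads of HFD mice at 16 weeks. In all there were 29 Dlk1 reads at 4 weeks, 13 of them in that Ctr mouse, and 34 at 16 weeks, or 21 without the library with muscle markers. Like Igf2, Dlk1 did not pass the filter of the test.

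Meg3 (ENSMUSG00000021268, chr12:109541001-109571726, plus strand) was detected in 13 of 16 Ctr mice (0 to 0.677 CPM, median 0.227 CPM) and 17 of 18 HFD mice (0 to 1.16 CPM, median 0.372 CPM) at 4 weeks. At 16 weeks every mouse had Meg3 reads, from 0.116 to 3.10 CPM in Ctr (median 0.416 CPM) and from 0.0655 to 1.13 CPM in HFD (median 0.518 CPM). The ages overlapped widely: 25 of 36 mice of 16 weeks lay above the 4-week median and 2 above the highest mouse of 4 weeks. The highest 2 mice were both Ctr at ZT13, at 3.10 and 1.52 CPM.

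Peg3, Plagl1 and Mest are the paternally read genes that remained measurable in every mouse. Peg3 (ENSMUSG00000002265, chr7:6703892-6730431, minus strand) and Plagl1 (ENSMUSG00000019817, chr10:13060504-13131694, plus strand) encode zinc finger proteins, and Mest (ENSMUSG00000051855, chr6:30723547-30748465, plus strand) encodes a protein with an alpha/beta hydrolase fold. Peg3 at 4 weeks ran from 1.94 to 6.32 CPM in Ctr (median 4.30 CPM) and from 3.03 to 7.43 CPM in HFD (median 4.50 CPM). Peg3 at 16 weeks ran from 1.92 to 4.66 CPM in Ctr (median 3.15 CPM) and from 0.941 to 3.61 CPM in HFD (median 2.07 CPM). The diets lay on top of each other at 4 weeks, whereas at 16 weeks 9 of 18 HFD mice were below the lowest Ctr mouse. Plagl1 at 4 weeks ran from 0.818 to 4.24 CPM in Ctr (median 1.44 CPM) and from 0.520 to 5.20 CPM in HFD (median 1.93 CPM). Plagl1 at 16 weeks ran from 0.243 to 2.27 CPM in Ctr (median 0.924 CPM) and from 0.388 to 1.80 CPM in HFD (median 1.01 CPM). Diets overlapped at both ages, and 6 of 36 mice of 16 weeks were below the lowest mouse of 4 weeks.

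Mest in mice of 4 weeks ran from 2.10 to 8.65 CPM in Ctr (median 4.74 CPM) and from 1.82 to 7.90 CPM in HFD (median 3.76 CPM). In mice of 16 weeks it ran from 0.881 to 4.73 CPM in Ctr (median 1.67 CPM) and from 0.579 to 2.57 CPM in HFD (median 1.45 CPM). The ages separated more clearly than for Peg3 or Plagl1, with 23 of 36 older mice below the lowest younger mouse and 35 below the younger median. Copg2 overlaps Mest on the opposite strand at a median count of 425 per mouse, and for the same reason reads could have been assigned to either gene.

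Cdkn1c and Grb10 are the growth-restraining genes of the set. Cdkn1c (ENSMUSG00000037664, chr7:143458339-143461050, minus strand) encodes the cyclin-dependent kinase inhibitor p57. Cdkn1c at 4 weeks ran from 0.826 to 2.70 CPM in Ctr (median 1.76 CPM) and from 0.756 to 2.66 CPM in HFD (median 1.65 CPM). Cdkn1c at 16 weeks ran from 0.721 to 1.87 CPM in Ctr (median 1.08 CPM) and from 0.686 to 2.47 CPM in HFD (median 0.991 CPM). Ages and diets overlapped, 33 of 36 older mice lay below the younger median, and the mouse at 2.47 CPM was the 16-week library with muscle markers. Grb10 (ENSMUSG00000020176, chr11:11930508-12038683, minus strand) encodes an adaptor that binds the insulin and IGF1 receptors and damps their signal. Grb10 at 4 weeks ran from 4.16 to 11.8 CPM in Ctr (median 7.09 CPM) and from 3.73 to 15.2 CPM in HFD (median 7.45 CPM). Grb10 at 16 weeks ran from 2.46 to 12.1 CPM in Ctr (median 4.33 CPM) and from 1.90 to 8.51 CPM in HFD (median 3.91 CPM). Of the older mice 14 of 36 were below the lowest younger mouse, and a Ctr mouse at ZT1, replicate 2, stood alone at 12.1 CPM.

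The age difference was tested over all 70 mice with edgeR (quasi-likelihood F test; Benjamini-Hochberg adjusted p under 0.05), and 7 genes of the set passed the filter on low counts. All 7 were called, 6 lower and 1 higher at 16 weeks, where 63.3% of the 16444 genes tested were called (34% lower and 29.2% higher). The median log2 difference of the 7 was -0.79, against -0.03 over all genes tested. H19 changed by -3.99 (SE 0.53, 95% interval -5.06 to -2.92, adjusted p 1.59e-09) and Mest by -1.37 (SE 0.11, interval -1.59 to -1.15, adjusted p 4.14e-17), each lower at 6 of 6 times of day. Leaving out the mice of each replicate number in turn moved the H19 value between -4.71 and -3.45, with the call kept. Plagl1 changed by -1.05 (SE 0.18, adjusted p 4.36e-07), Peg3 by -0.79 (SE 0.10, adjusted p 1.33e-10), Grb10 by -0.72 (SE 0.11, adjusted p 1.33e-07) and Cdkn1c by -0.62 (SE 0.11, adjusted p 1.86e-06), also at 6 of 6 times. Meg3 rose by 0.63 (SE 0.26, interval 0.11 to 1.16, adjusted p 0.0316) and was higher at 5 of 6 times, or 6 of 6 without the 3 libraries with markers of another tissue. Its call was lost when the mice of replicate 1 (0.52) or those of replicate 3 (0.63) were left out.

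Among the 7 genes that entered the test, the spread between mice was widest for H19. At 4 weeks its coefficient of variation was 138% in Ctr and 181% in HFD, where that of Peg3 was 26.6% and 26.2%. The biological coefficient of variation that edgeR fitted for H19 was 93.3% at 4 weeks, against 30.1% on the trend for genes of its abundance, and this ratio ranked 40 among 16776 genes. At 16 weeks it was 147% against 34.7%, rank 25 of 17409. Without the 3 libraries with markers of another tissue the coefficient of variation of H19 over all mice went from 168% to 135% at 4 weeks and from 514% to 152% at 16 weeks. Grb10 at 16 weeks (36.8% against 21.6% on the trend, rank 666) and Plagl1 at 4 weeks (47.3% against 34.1%, rank 1458) also lay above their trends, while Cdkn1c at 4 weeks lay below it (25.4% against 36.2%).

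The highest H19 level at each age was in a library with muscle markers, 28.0 CPM from 535 reads at 4 weeks and 28.2 CPM from 479 reads at 16 weeks. The part of the muscle markers in these values was not tested. The second muscle signal at 4 weeks, 27.2 CPM over 8 of 10 markers in the Ctr mouse at ZT17, replicate 1, went with an H19 level of 1.81 CPM, close to the age median of 1.64 CPM. Other mice were high in H19 with next to no muscle signal. The Ctr mouse of 4 weeks at ZT5, replicate 1, had 16.5 CPM of H19 and 0.534 CPM of muscle markers, and the HFD mouse at ZT5, replicate 2, had 13.3 CPM and 0.799 CPM. Markers of cycling cells summed to 92.0 CPM in the former, the highest at that age and led by Top2a, and were also above the age median of 29.7 CPM in the latter. They did not follow H19 throughout: the library with muscle markers had 18.1 CPM of them beside its 28.0 CPM of H19, and the HFD mouse at ZT5, replicate 3, with the second highest sum of 85.9 CPM, had 3.16 CPM of H19. Their part in the H19 level was not tested.

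**Figure D2:**
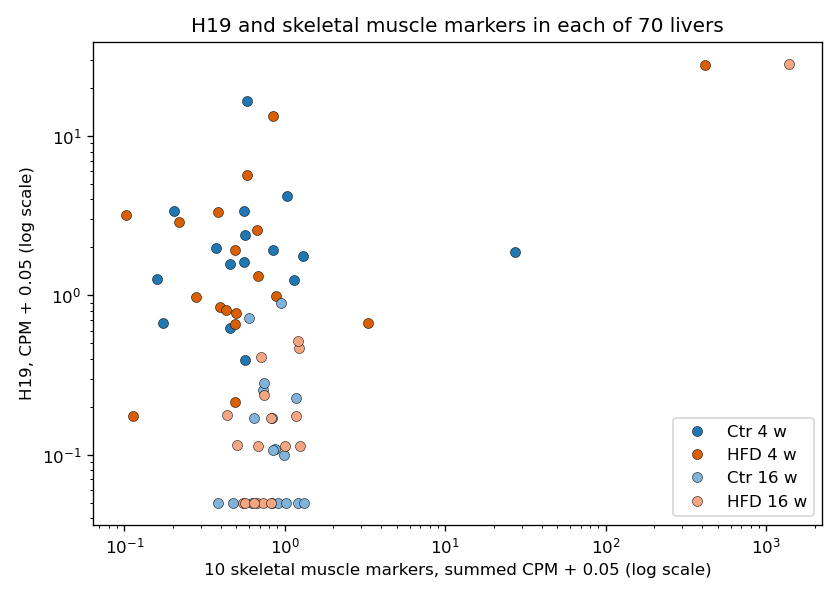
H19 level against the summed level of 10 skeletal muscle markers in each of the 70 mice (both as CPM plus 0.05, log axes). The libraries with 417 and 1382 CPM of muscle markers hold the highest H19 of their age, 28.0 and 28.2 CPM, and 2 mice of 4 weeks with 0.534 and 0.799 CPM of muscle markers follow with 16.5 and 13.3 CPM.

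With the library with muscle markers set aside, 2 Ctr mice of 16 weeks, named after their values were seen, led several of the genes at once. Replicate 2 at ZT1 and replicate 2 at ZT5 had the highest remaining H19 (0.842 and 0.676 CPM, from 15 and 11 reads), the highest Plagl1 (2.02 and 2.27 CPM) and the highest Mest (3.26 and 4.73 CPM). The ZT1 mouse also had the highest Grb10. Both led the cycling cell markers, with summed levels of 15.8 and 23.2 CPM against a 16-week median of 6.06 CPM, 8 of 8 markers detected and Mki67 the most abundant. The ZT5 mouse also had the highest Kupffer cell sum (328 CPM, median 226 CPM), the highest remaining stellate cell sum (418 CPM, median 243 CPM) and the second highest endothelial sum (235 CPM, median 157 CPM), and the ZT1 mouse the highest cholangiocyte sum (80.5 CPM, median 40.8 CPM). Their muscle markers summed to 0.898 and 0.553 CPM. The part of these cell types in the levels was not tested.

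No gene of the set passed the test for maternal diet at either age. At 4 weeks edgeR called 0 of 7, against a background of 0.00596% (1 of 16776 genes, Ms4a4c, named here after its value was seen). At an unadjusted p under 0.05 there were 0 of 7, beside 1577 of all genes, and DESeq2 called 0 of the 7 and 49 of all genes. At 16 weeks edgeR called 0 of 7 against 0.0919% of 17409 genes. Here 2 of 7, Peg3 and H19, had an unadjusted p under 0.05, beside 2026 of all genes, and DESeq2 called 0 of the 7 and 120 of all genes. The difference between the ages in the diet effect was called by edgeR for 0 of 7 against 0.158% of 16444 genes (0.146% lower and 0.0122% higher). In this comparison 1 of 7, Peg3, had an unadjusted p under 0.05, beside 1768 of all genes, and DESeq2 called 0 of the 7 and 102 of all genes. Median log2 differences of the 7 between HFD and Ctr were 0.18 at 4 weeks and -0.04 at 16 weeks, where all genes had 0.0044 and -0.0045.

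Peg3 was the gene nearest to a diet difference. At 16 weeks its log2 difference was -0.44 (SE 0.15, 95% interval -0.75 to -0.14, unadjusted p 0.00581, adjusted p 0.220 by edgeR with Benjamini-Hochberg), with lower HFD means at 6 of 6 times of day and 13 of 18 HFD mice below the Ctr median. At 4 weeks it was 0.18 (SE 0.12), higher in HFD at 5 of 6 times. The change in the diet effect between ages was -0.64 (SE 0.20, unadjusted p 0.00162, adjusted p 0.155), so Peg3 failed the correction in both tests.

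H19 had the largest fitted diet difference at 16 weeks, a log2 value of 1.97 (SE 0.91, unadjusted p 0.0364, adjusted p 0.384, HFD higher at 4 of 6 times, or 3 of 6 without the library with muscle markers), and this rested on 1 library. Without the HFD mouse at ZT21, replicate 2, which carried the muscle markers, it was -0.0048. At 4 weeks H19 differed by 0.31 (SE 0.52) with all mice and by -0.31 without the 2 libraries of that age that carried muscle or pancreas markers. The part of the muscle markers in either value was not tested.

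Meg3 at 4 weeks was 0.75 higher in HFD on the log2 scale (SE 0.45, interval -0.16 to 1.66, adjusted p 0.583 by edgeR), with higher means at 6 of 6 times of day, with 6 of 18 HFD mice above the highest Ctr mouse. Without the libraries with muscle or pancreas markers this was 5 of 6 times and 5 of 16 mice; the pancreas library had 1.14 CPM of Meg3, the second highest at that age. Among the remaining genes the difference at 4 weeks was 0.37 for Plagl1 (SE 0.25; 0.062 to 0.83 with mice left out), -0.15 for Mest (SE 0.14), -0.02 for Cdkn1c (SE 0.15) and 0.12 for Grb10 (SE 0.12). At 16 weeks it was -0.15 for Meg3 (SE 0.31), but 0.033 without the Ctr mouse at ZT13, replicate 2, and HFD had the higher mean at 4 of 6 times. The others at 16 weeks were 0.05 for Plagl1 (SE 0.23), -0.18 for Mest (SE 0.17), 0.11 for Cdkn1c (SE 0.17; -0.00077 without the library with muscle markers) and -0.04 for Grb10 (SE 0.19). None of these passed the test. The intervals bound what could have been missed: for Grb10 they ran from -0.13 to 0.38 at 4 weeks and from -0.42 to 0.34 at 16 weeks, and for Mest from -0.43 to 0.13 and from -0.52 to 0.17. They were wider for Plagl1, from -0.15 to 0.88 and from -0.42 to 0.51, and for Meg3 at 16 weeks, from -0.78 to 0.48. For H19 they ran from -0.74 to 1.36 at 4 weeks and, with the library with muscle markers, from 0.13 to 3.80 at 16 weeks. Dlk1, with reads at 16 weeks in 9 of 18 Ctr and 2 of 18 HFD mice, did not pass the filter, and this difference in detection was not tested.

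Maternal diet was also compared for the spread between mice, as the mean distance of each mouse from its fitted level on the log2 scale. The fit added 1 diet effect to the time of day, so a diet difference that varies with time counts as spread here. With limma 0 of 7 genes were called at 4 weeks (background 0%, 1 of 7 at an unadjusted p under 0.05, beside 908 of all 16776) and 0 of 7 at 16 weeks (background 0%, 2 of 7, beside 833 of all 17409); no second tool was run for it. Peg3 at 16 weeks had a distance of 0.488 in HFD and 0.241 in Ctr, a difference of 0.25 (SE 0.08, unadjusted p 0.00388, adjusted p 0.938) that ran from 0.050 to 0.35 when the mice of a replicate number were left out. Plagl1 at 16 weeks had 0.369 in HFD and 0.639 in Ctr (difference -0.27, adjusted p 0.986). Meg3 at 4 weeks had 0.772 in HFD and 1.39 in Ctr (difference -0.62, adjusted p 0.899). The Meg3 difference ran from -0.75 to -0.065 with mice left out and from -1.14 to -0.28 over the other settings, squared residuals among them. Median counts of Meg3 were only 4 in Ctr and 6.5 in HFD at 4 weeks, and the part of counting noise in its spread was not tested. In simulated data the test gave the right directions but called only a minority of changed genes, so these counts of 0 say little.

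By the cosine fit, time of day changed Mest at 4 weeks and Grb10 at 16 weeks. Mest at 4 weeks had medians of 5.16, 6.94, 4.17, 2.59, 3.32 and 5.11 CPM from ZT1 to ZT21, highest at ZT5 and lowest at ZT13. A 24 h cosine had an amplitude of 0.57 on the log2 scale with its peak at 2.08 h (adjusted p 0.000269, edgeR), and Mest was the 1 gene of 7 called, against 29.9% of all genes tested. At 16 weeks Mest had an amplitude of 0.35 with its peak at 2.68 h and missed the threshold (adjusted p 0.0594), which it passed in the DESeq2 likelihood ratio test (0.0429, with 0.0429 to 0.181 over the other settings); medians there were 2.07 CPM at ZT1 and 1.20 CPM at ZT13. Cycling cell markers were called in 8 of 8 cases at 4 weeks, with a median amplitude of 0.88, and their part in the Mest rhythm was not tested. Whether the rhythm of Mest differed between the ages was not tested either.

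Grb10 at 16 weeks had medians of 3.02, 2.70, 4.19, 6.00, 6.40 and 4.53 CPM from ZT1 to ZT21, with the high values in the dark phase. Its amplitude was 0.51 with the peak at 16.9 h (adjusted p 0.00999), and the call was lost without the mice of replicate 1 (amplitude 0.41). At 4 weeks Grb10 medians were 6.27, 7.00, 4.76, 10.6, 6.73 and 8.22 CPM, and the cosine (amplitude 0.22, adjusted p 0.216) did not pass, but a test with time as a factor did (0.00518, with 0.00518 to 0.221 over the other settings). At 16 weeks 2 of 7 genes were called against a background of 35%. The other was H19, whose amplitude of 2.94 (adjusted p 0.000439) went to 1.05, past the threshold no longer, without the ZT21 library with muscle markers. At 4 weeks H19 had an amplitude of 1.01 (adjusted p 0.115) and passed, with 0.89, without the 2 libraries of other tissue. The median amplitude of the 7 was 0.23 at 4 weeks and 0.35 at 16 weeks, against 0.23 and 0.20 over all genes tested.

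**Figure D3:**
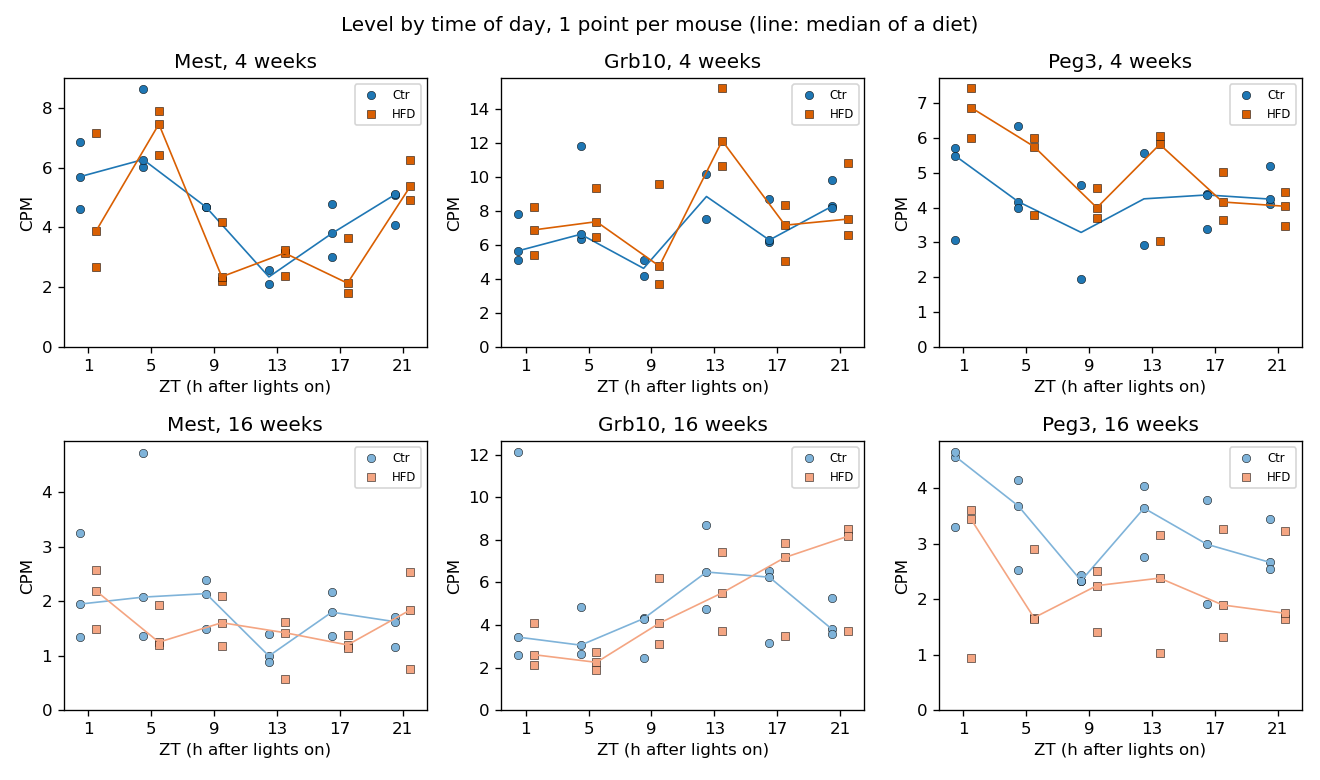
Levels of Mest, Grb10 and Peg3 (CPM) by time of day (ZT in h) at 4 weeks (upper panels) and 16 weeks (lower panels); circles are Ctr and squares HFD mice, and lines join the medians of each diet. Mest at 4 weeks is lowest at ZT13, Grb10 at 16 weeks is highest at ZT17, and the HFD median of Peg3 at 16 weeks lies below that of Ctr at 6 of 6 times.

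Other genes were grouped in lists, and their counts with age stand beside the 63.3% of all genes tested that were called (34% lower, 29.2% higher), so a list near that share says little. Of 49 other imprinted genes 38 were tested and 20 (52.6%) were called, 11 higher and 9 lower, with a median log2 difference of 0.04 against -0.03 over all genes tested. Gnas, which encodes the stimulatory G protein alpha subunit, rose by 1.98 and Commd1 by 0.98, while Asb4 changed by -1.36 and Dio3, the deiodinase that inactivates thyroid hormone, by -1.02. Igf2r, the receptor that clears Igf2, was at 42.1 CPM at 4 weeks and 45.6 CPM at 16 weeks in the median and was not called (0.04).

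Of the IGF and insulin axis 13 of 18 tested genes (72.2%) were called, 4 higher and 9 lower (median -0.09), near the share over all genes. Igf2bp3, a fetal RNA-binding protein that binds Igf2 transcripts, fell from a median of 2.66 CPM to 0.0644 CPM (log2 difference -5.03). Igfbp1 changed by -1.62 and Igfbp3 by -1.45, both secreted binding proteins, and Igf1, the growth factor made by the postnatal liver, by -0.39 from 859 to 656 CPM. Of Notch and cell cycle partners 10 of 13 (76.9%) were called, 2 higher and 8 lower (median -0.30), with Ccne2 at -1.35 and Cdkn1a, a relative of Cdkn1c, at -0.94. The list of fetal liver genes and their repressors had 3 of 5 tested genes called, 1 higher and 2 lower (median -0.39). The fetal genes Gpc3 (-0.98) and Afp (-0.45) were lower and Zhx2, a known repressor of Afp, Gpc3 and H19 in liver, was higher (0.11). The fetal Cyp3a16 (-0.39) and the repressor Zbtb20 (-0.09) were not called. Lin28b had no read in any mouse.

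Genes that set imprints or keep them were called in 10 of 10 cases, 1 higher and 9 lower (median -0.35). Hells changed by -1.25, Uhrf1 by -1.11 and Zfp57, the zinc finger protein that binds methylated imprinting control regions, by -0.71, while Zfp445 with a like role rose by 0.67. Maternal diet called 0 genes with edgeR on each of these 5 lists at both ages and in the difference between ages. At 16 weeks an unadjusted p under 0.05 by edgeR was found for 5 of 38 other imprinted genes, 0 of 18 IGF axis genes and 1 of 13 Notch or cell cycle genes. It was also found for 1 of 6 on the fetal liver list and 1 of 10 that set or keep imprints, beside 2026 of all 17409 genes. At 4 weeks these counts were 2 of 38, 2 of 19, 1 of 13, 1 of 7 and 0 of 10, beside 1577 of 16776.

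Markers of several cell types changed between the ages in the same direction as the set. Cycling cell markers fell in 8 of 8 cases (median -2.20, Ccnb1 by 2.68), and their summed median went from 29.7 to 6.06 CPM. Stellate cell and fibroblast markers fell in 6 of 9 cases, from a summed median of 432 to 243 CPM. Within that list the collagen gene Col3a1 changed by -2.34 and Lrat by only -0.24, while Reln (-0.11), Colec11 (0.10) and Des (0.09) were not called. Kupffer cell markers fell in 6 of 6 cases, from 403 to 226 CPM. Endothelial markers were called in 6 of 6 cases, 5 lower and 1 higher, from 235 to 157 CPM. Of the cholangiocyte markers 4 of 6 were called (3 lower), of the hepatocyte markers 6 of 8 (4 lower) and of the erythroid markers 5 of 6 tested (3 lower), shares not far from the 63.3% called over all genes. Among the few markers of other organs with enough reads, 0 of 1 for muscle, 1 of 1 for adrenal cortex (higher), 1 of 2 for pancreas (Cela2a, lower) and 0 of 3 for mesothelium were called, and no adipose marker was tested. The 4-week library with pancreas markers alone held 7868 CPM of Cela2a, and the summed median of the pancreas markers was 18.9 CPM at 4 weeks and 29.0 CPM at 16 weeks. The part of these cell types in the fall of the imprinted genes was not tested. With maternal diet 0 markers on any of these lists were called at either age by edgeR. At 4 weeks 4 of 7 erythroid markers (median -0.51) had an unadjusted p under 0.05, beside 1577 of all 16776 genes. So did 3 of 9 stellate cell and fibroblast markers (median 0.20). At 16 weeks 4 of 6 erythroid markers (median 0.25) and 3 of 8 hepatocyte markers (median 0.08) had an unadjusted p under 0.05, beside 2026 of 17409. In the difference of the diet effect between ages 6 of 6 erythroid markers had one, beside 1768 of all 16444 genes, and 0 were called.

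The genes whose levels followed those of Plagl1, Mest, Meg3, Cdkn1c, Peg3 and Grb10 most closely from mouse to mouse were looked for among all tested genes, by Spearman rho of log2 levels with time and diet removed. These values are the highest of a search over 16776 genes at 4 weeks and 17409 at 16 weeks and carry no test. Over 34 mice of 4 weeks Plagl1 went with Ugcg (0.782), which encodes glucosylceramide synthase. Without the 2 libraries with muscle or pancreas markers Ugcg was still the nearest, at 0.810. Mest went with Wdr44 (0.730) and Tefm (0.727), which changed places without those libraries. The nearest genes of Meg3 (Trappc4, 0.689), Cdkn1c (Rpl26-ps6, 0.669), Peg3 (D430019H16Rik, 0.631) and Grb10 (Krtcap3, 0.605) were replaced by Stn1, E230001N04Rik, Setbp1 and Gm38070 in that case. Over 36 mice of 16 weeks Mest went with Aldh1b1 (0.741), Cdkn1c with Gm830 (0.723) and Peg3 with Fap (0.655), also without the library with muscle markers. Grb10 went with Prpf6 (0.762), Meg3 with Tmem150a (0.736) and Plagl1 with Efemp2 (0.722), replaced by Gtpbp4, S1pr5 and Tmsb10 without it. None of these 6 had the same nearest gene at both ages.

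The highest rho between members at 4 weeks was 0.408 for Mest and Plagl1, at which Plagl1 ranked 790 among the genes nearest to Mest, and H19 and Cdkn1c had 0.371. Without the libraries with muscle or pancreas markers Mest and Plagl1 had 0.375, at rank 1262.5, and H19 and Cdkn1c 0.313. At 16 weeks the closest pair was H19 and Plagl1 with 0.612, at which H19 ranked 16 among the genes nearest to Plagl1, although H19 had a median count of 1 there. Grb10 and Mest had 0.443 (0.414 without the library with muscle markers) and Cdkn1c and Mest 0.422 (0.338 without it). Meg3 and Plagl1 had a negative rho of -0.438, or -0.439 without that library.

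Promoters of the set were searched for the hexamer that Zfp57 binds when methylated, and 3 windows that hold it are shown. RefSeq promoters (GRCm38.p6, 300 bases each, 250 before and 50 after the start) were found for 7 of the 9 genes, 14 promoters in all. TGCCGC, or GCGGCA when read on the other strand, occurred in 6 of these 14, belonging to Igf2, Meg3, Plagl1, Mest and Grb10, and in 11.6% of all 32851 promoters (3813). The 2 Mest promoters with the hexamer overlap, so they share their matches. The promoters of Peg3 and Dlk1 hold none, and neither do further promoters of Igf2, Meg3, Mest and Grb10. Any relation of the hexamer to the levels was not tested. The hexamer itself holds a CpG dinucleotide. Promoters of the set with it held from 13 (Meg3) to 45 (Grb10) CpG dinucleotides, against a median of 7 over all promoters. The 2 shares were not matched for this. The 45 CpG of the Grb10 window were more than in 98.1% of promoters. Capitals mark the hexamer, and a match describes letters only, not binding.
Mest promoter (chr6:30737800-30738099, plus strand): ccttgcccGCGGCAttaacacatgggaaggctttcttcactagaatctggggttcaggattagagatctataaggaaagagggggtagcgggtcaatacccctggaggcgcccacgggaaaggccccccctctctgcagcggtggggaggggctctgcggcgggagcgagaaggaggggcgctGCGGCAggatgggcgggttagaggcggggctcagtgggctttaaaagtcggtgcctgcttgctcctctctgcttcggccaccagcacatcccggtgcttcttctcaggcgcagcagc
Plagl1 promoter (chr10:13090582-13090881, plus strand): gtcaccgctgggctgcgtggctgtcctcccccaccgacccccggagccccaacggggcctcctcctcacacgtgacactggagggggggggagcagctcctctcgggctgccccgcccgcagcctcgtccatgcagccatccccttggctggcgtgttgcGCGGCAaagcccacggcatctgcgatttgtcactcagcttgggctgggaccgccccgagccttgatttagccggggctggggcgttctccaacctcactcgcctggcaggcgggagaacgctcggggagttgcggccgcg
Grb10 promoter (chr11:12037371-12037670, minus strand): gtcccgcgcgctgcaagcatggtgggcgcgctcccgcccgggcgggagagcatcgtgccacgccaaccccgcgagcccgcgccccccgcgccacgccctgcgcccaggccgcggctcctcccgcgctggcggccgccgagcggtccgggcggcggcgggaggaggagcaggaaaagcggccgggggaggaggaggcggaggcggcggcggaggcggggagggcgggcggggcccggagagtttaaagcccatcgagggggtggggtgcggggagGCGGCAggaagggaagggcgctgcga

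H19 and Mest each host a microRNA, and the mature forms from RefSeq are given because both host genes fell with age. The counted genes of the hairpins had at most 0 reads (Mir675, in H19) and 1 read (Mir335, in Mest) per mouse, so these libraries do not measure the microRNAs. Capitals mark the seed, bases 2 to 8.
mmu-miR-675-5p: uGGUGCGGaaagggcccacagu
mmu-miR-675-3p: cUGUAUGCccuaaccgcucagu
mmu-miR-335-5p: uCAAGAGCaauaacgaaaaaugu
mmu-miR-335-3p: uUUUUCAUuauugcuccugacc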

How the data were processed

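RNA of 70 livers was sequenced, and the authors aligned the reads with HISAT2 2.0.5 and counted them per gene with featureCounts 1.5.0-p3. They deposited read counts, with no normalization, in 1 table per age. The strand setting is not stated, and 2 columns of the 4-week table match no sample and were left out. The columns were joined to the samples by the names in the sample descriptions, and no libraries were identical. The HFD mouse at ZT21, replicate 3, of the 4-week table carries an age label of 16 weeks and was used as a 4-week mouse, as its title states.

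From the deposited counts, CPM were computed with the library total. A gene entered a test if at least 50% of Ctr and 50% of HFD mice had a read of it. Levels were tested with edgeR 4.0.16 (quasi-likelihood F test, TMM scaling) in R 4.3.3: diet with time as a factor within each age, age and the diet by age difference in a joint fit, and a 24 h cosine with diet. Spread was tested with limma 3.58.1 on absolute residuals of log2 CPM (prior count 0.5). P-values were adjusted by Benjamini-Hochberg over all genes kept, with a threshold of 0.05. The models were tested on simulated counts, and the criterion for the spread test was relaxed to direction and false calls after it called few of the changed genes. Tables were made with Python 3.11.15 and pandas 2.3.3, and plots with matplotlib 3.10.9.

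Alternatives were DESeq2 1.42.0, its size factors, library totals, other filters, no time factor, a replicate block, squared residuals, leaving out mice, and, chosen after seeing the data, leaving out the 3 libraries with markers of another tissue. The members and gene lists were chosen with earlier results of these data known. Named genes are the 9 members, up to 4 genes per list (called genes with the largest change first, then the most abundant) and genes most like a member in rho. Some list genes were named outside this rule, for their role or to show the range of a list, after their values were seen.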

Additional observations from a re-analysis of the deposited data

How the results depend on the processing

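With age, 68 of 70 repeats kept direction and call, the other 2 being Meg3 without replicate 1 (0.52) or replicate 3 (0.63), no longer past the threshold. The count of members called for diet was 0 in every setting, at both ages and for the interaction. The cause of the shifts below was not tested. Igf2 and Dlk1 entered a fit only with no filter, and were not called there for diet or the interaction.

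Diet effect, all genes called (interaction 26, 16 weeks 16, 4 weeks 1 as reported): DESeq2 gave 102, 120 and 49, filterByExpr 52, 27 and 2, and no filter 96 and 127. Without a filter, for the diet effect at 4 weeks, all genes called numbered 251. Library totals gave 90 for the interaction and 132 at 16 weeks, and Plagl1 at 16 weeks turned to -0.025. DESeq2 size factors gave 3 genes at 4 weeks, and the interaction's 2 higher and 24 lower genes became 6 higher and 22 lower. Without the time factor 1 gene was called at 16 weeks and 8 at 4 weeks.

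With the replicate block the interaction had 47 genes and diet at 4 weeks 0; Cdkn1c at 4 weeks turned to 0.0085 in level, and in spread Grb10 at 16 weeks turned to -0.0097 and Plagl1 at 4 weeks to -0.051. The labels give no pairing of mice. Equal replicate numbers correlated at -0.106 to 0.171 over 16 pairs at 4 weeks and at -0.0385 to 0.0785 over 18 pairs at 16 weeks. Among the HFD mice of its time, a Ctr mouse correlated best with that of its own number in 5 of 16 and 11 of 18 pairs. Whether mice of equal number share a litter or batch was not tested. Squared residuals turned the spread of Grb10 at 16 weeks to -0.10 and of Cdkn1c at 4 weeks to -0.021.

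Without the 3 libraries with markers of another tissue, chosen after seeing the data, the interaction had 48 genes, diet 4 at 16 weeks and 3 at 4 weeks. H19 turned to -0.0048 at 16 weeks and -0.31 at 4 weeks, and Cdkn1c at 16 weeks to -0.00077. For the diet effect on spread at 16 weeks, Grb10 difference in spread turned to -0.00087, Cdkn1c to -0.0019 and H19 to -0.080. For the diet effect on spread at 4 weeks, Cdkn1c difference in spread turned to -0.0075. Rhythm then called 1 member at 16 weeks, H19 being lost, and 2 at 4 weeks, with H19 gained (amplitude 0.89). With time as a factor the rhythm test at 4 weeks called 2 members, Grb10 gained. The DESeq2 likelihood ratio test also called Mest at 16 weeks.

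Leaving out mice moved the diet effect at 16 weeks from -0.0048 to 2.71 for H19, -0.27 to 0.033 for Meg3, -0.24 to 0.22 for Grb10, -0.17 to 0.30 for Plagl1 and -0.16 to 0.40 for Cdkn1c, with 0 to 50 genes called, 50 without the HFD mouse at ZT9, replicate 1. Meg3 turned without the Ctr mouse at ZT13, replicate 2. At 4 weeks it moved from -0.33 to 0.66 for H19 (lowest without the HFD mouse at ZT21, replicate 1), -0.28 to 0.027 for Mest, -0.18 to 0.14 for Cdkn1c and -0.067 to 0.23 for Grb10, with 0 to 19 genes called, 19 without the Ctr mouse at ZT5, replicate 1. The interaction moved from -0.41 to 0.27 for Grb10, -0.43 to 0.26 for Mest, -0.99 to 0.23 for Plagl1 and -0.31 to 0.59 for Cdkn1c, with 0 to 1 genes called. Spread at 16 weeks moved from -0.079 to 0.095 for Cdkn1c, -0.20 to 0.0016 for Meg3, -0.14 to 0.087 for Grb10 and -0.10 to 0.15 for Mest, with 0 to 1 genes called. Spread at 4 weeks moved from -0.21 to 0.70 for H19, -0.037 to 0.23 for Plagl1, -0.028 to 0.043 for Cdkn1c and -0.040 to 0.19 for Grb10, with 0 to 2 genes called. For the rhythm at 16 weeks, all genes called numbered 3730 to 4513, with 1 to 2 members among them. For the rhythm at 4 weeks, all genes called numbered 2281 to 3945.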
